A study of Mus musculus with 11 samples.

Results

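The genes described here encode the protein components of the cytosolic ribosome, and were followed in mouse livers in which YAP, the transcriptional coactivator at the end of the Hippo pathway, was switched on for 3 or 7 days. Members were chosen by name, with earlier results of these data known, and no measured change entered the rule. They were symbols that begin with Rpl or Rps and a digit, Rplp0 to Rplp2, and Rpsa, without pseudogene symbols or the S6 kinases. Of 86 such symbols, 84 reached 0.5 eRPKM in at least 3 of the 11 libraries and were followed, out of 14244 genes that met the same condition among the 20893 of the table. Rpl10l and Rpl3l, copies better known from testis and muscle, reached it in 2 libraries each and held 0 to 7 reads per library. The 84 comprised 31 proteins of the small subunit, 46 of the large subunit, 6 close copies of other members (Rpl7l1, Rpl22l1, Rpl36al, Rpl39l, Rps27l and Rps4l), and Rps19bp1, a nucleolar binding partner of the small-subunit protein Rps19 that is not itself part of the ribosome.

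The libraries were bulk RNA-seq of homogenized whole liver from C57BL/6 mice, 1 per sample. The 4 controls carried ROSA26-rtTA-IRES-EGFP, were labelled WT for the transgene and were fed doxycycline for 7 days. The other mice carried ROSA26-rtTA-IRES-EGFP with tetYAP and were fed doxycycline for 3 days (n = 4) or 7 days (n = 3). No control with 3 days of doxycycline was among the libraries, so the 3-day comparison with control also differs in the time on doxycycline. According to the study's methods, rtTA was released by a Cre recombinase under the albumin promoter, which is active in hepatocytes, and the transgene is an activated YAP that carries a mutation at an inhibitory phosphorylation site. The labels do not state that each library is a separate animal, so p-values measure the spread between these samples. Ages are not given in the sources used here.

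The cytosolic ribosome is built in the nucleolus from ribosomal RNA and single copies of most of its proteins, which join the small or the large subunit. Genes for these proteins are expressed in every cell and at high level, and their messages typically begin with a C followed by an unbroken run of C and T, the terminal oligopyrimidine (TOP) start, through which mTOR signaling sets how well they are translated. RNA-seq measures the amount of message and not how well it is translated. Growing hepatocytes, as in a regenerating or YAP-driven liver, make new ribosomes, and Myc is a known driver of the genes that do so.

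Promoter sequences around the annotated start of RNA synthesis were taken from RefSeq (GRCm38.p6) and were found for 63 of the 84 genes. Of these 63, 13 (20.6%) had a C at the annotated start followed by at least 4 letters that are each C or T, against 3.01% of 27025 genes. The windows below reach from 30 bases before the start to 20 bases from it. Rps6, Rpl15, Rps27, Rplp2 and Rpl28 are shown as members with a TOP start whose levels are given further on, and Rpl22 and Rps16 because they stood apart from the other members and have none at the annotated start. Capitals mark the run of C and T from the start or, where there is none, the first base alone.
Rps6, chr4:86857348-86857397, minus strand: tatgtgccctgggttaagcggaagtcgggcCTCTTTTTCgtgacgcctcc
Rpl15, chr14:18270967-18271016, minus strand: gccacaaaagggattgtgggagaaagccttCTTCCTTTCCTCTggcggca
Rps27, chr3:90213629-90213678, minus strand: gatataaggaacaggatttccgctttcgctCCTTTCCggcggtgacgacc
Rplp2, chr7:141447621-141447670, plus strand: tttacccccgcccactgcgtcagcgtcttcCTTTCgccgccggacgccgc
Rpl28, chr7:4792935-4792984, plus strand: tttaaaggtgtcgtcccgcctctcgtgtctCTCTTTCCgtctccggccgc
Rpl22, chr4:152325696-152325745, plus strand: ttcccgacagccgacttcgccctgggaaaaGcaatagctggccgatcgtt
Rps16, chr7:28350659-28350708, plus strand: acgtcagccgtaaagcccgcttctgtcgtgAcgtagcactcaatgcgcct
The string CCGGAAG, bound by ETS-family factors, occurred on either strand within 250 bases before to 50 after the start of 26 of the 63 genes (41.3%) and of 9.93% of all genes. AAGATGG, bound by YY1, occurred in 10 of the 63 (15.9%) and in 7.28% of all genes. These matches describe letters in a window, and an annotated start may lie some bases from the one used in liver. Among proteins of both subunits, the 13 with a TOP start and the 44 without it had median log2 fold changes of -0.36 and -0.36 at 7 days against control.

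Ribosomal protein messages were abundant, and most of their variation between libraries was shared. The deposited unit, eRPKM, divides exonic reads by exon length and by library depth, so it compares shares of a library and not RNA per cell. The mean level over the 11 libraries had a median of 122 eRPKM over the 31 small-subunit genes and 115 eRPKM over the 46 large-subunit genes. Rplp1, a protein of the acidic stalk that recruits elongation factors, was the most abundant (275 eRPKM), followed by Rpl10 (225 eRPKM) and Rpl4 (225 eRPKM), both of the large subunit. Rpl26 (0.326 eRPKM), Rpl36al (3.37 eRPKM) and Rpl34 (4.18 eRPKM) were the lowest. When each library was centred on the median of its subunit genes, the SD of a gene over the 11 libraries had a median of 0.13 on the log2 scale, against 0.33 before centring. After centring, 60 of the 84 genes had an SD under 0.2 and 7 an SD above 0.5. These 7 were Rps16, Rpl34, Rpl36al, Rps4l, Rps19bp1, Rpl26 and Rpl39l. Smaller shifts within the family remained between groups. Relative to the median subunit gene, the 7-day livers lay above all controls for 15 of the 84 genes and below all controls for 16, beside 36.2% and 4.43% of all genes tested. Against the 3-day livers they lay above for 12 and below for 7, beside 41.7% and 6.6%. Centring on the median of the family itself makes rises and falls among its members balance. All other genes keep their offset from the family, so these counts and shares are not a like comparison. At 3 days 1 gene (Rpl26) lay above and 1 (Rpl29) below controls, beside 0.927% and 0.604%. Rpl26 had no read in any control and at most 2 in any library. It passed the filter only through induced livers, so its place above controls was fixed by the filter and its wide SD rests on few reads.

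**Figure D1:**
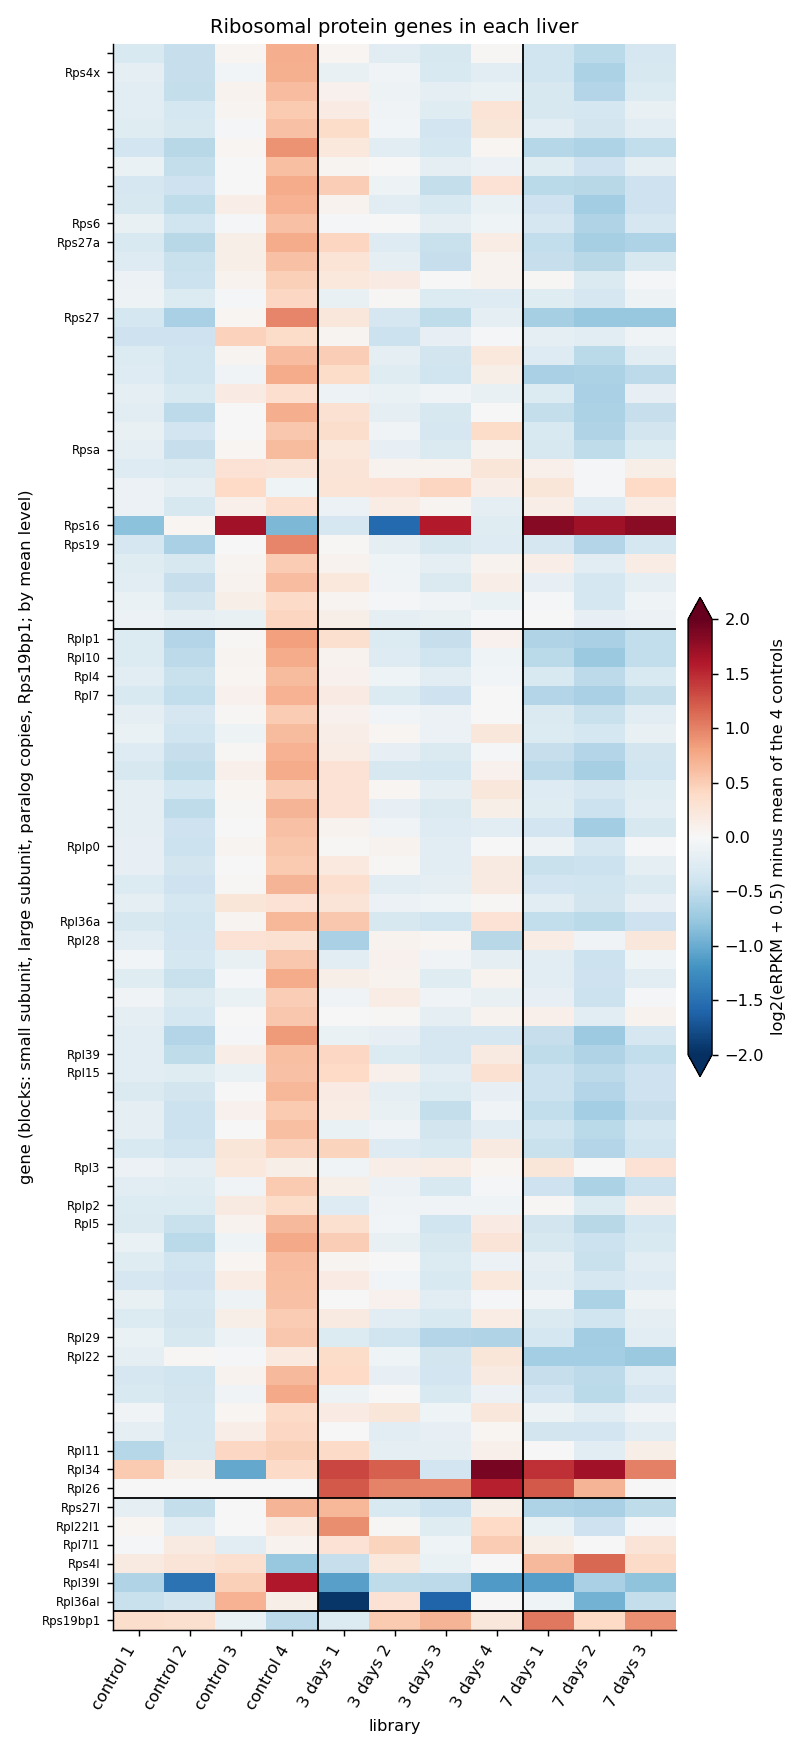
Level of each of the 84 genes (rows) in each of the 11 libraries (columns), as log2(eRPKM + 0.5) minus the mean of the 4 controls, on a color scale that saturates at -2 and 2, with names beside the rows of genes described in the text. Nearly whole columns share 1 color, highest in control 4 and lowest in control 2 and 7-day liver 2, while the rows of Rps16, Rpl34, Rpl26 and Rpl39l differ from their neighbours.

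The common level of the family differed between libraries along with their depth. Libraries held 1251396 (control 4) to 5941357 (7-day liver 2) reads on genes, and the 3 libraries at 7 days were deeper than all others except control 2. The median eRPKM of the 84 genes was 102, 91.3, 124 and 176 in controls 1 to 4. It was 133, 109, 102 and 118 after 3 days of induction and 95.4, 83.1 and 101 after 7 days. Control 4, the shallowest library, had the highest value and control 2, the deepest control, lay among the 7-day livers. The share of all reads that fell on the 84 genes ran from 0.663% in 7-day liver 2 to 1.36% in control 4. Between control 4 and control 2 the depth rose 4.39 times and the reads on the 84 genes 2.23 times. Reads on Alb, the most abundant hepatocyte message, were 2417 to 3102 in every library whatever its depth. The handling of duplicate reads, which would bound the reads on short abundant messages, is not given in the sources used here, and its part in these values was not tested.

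**Figure D2:**
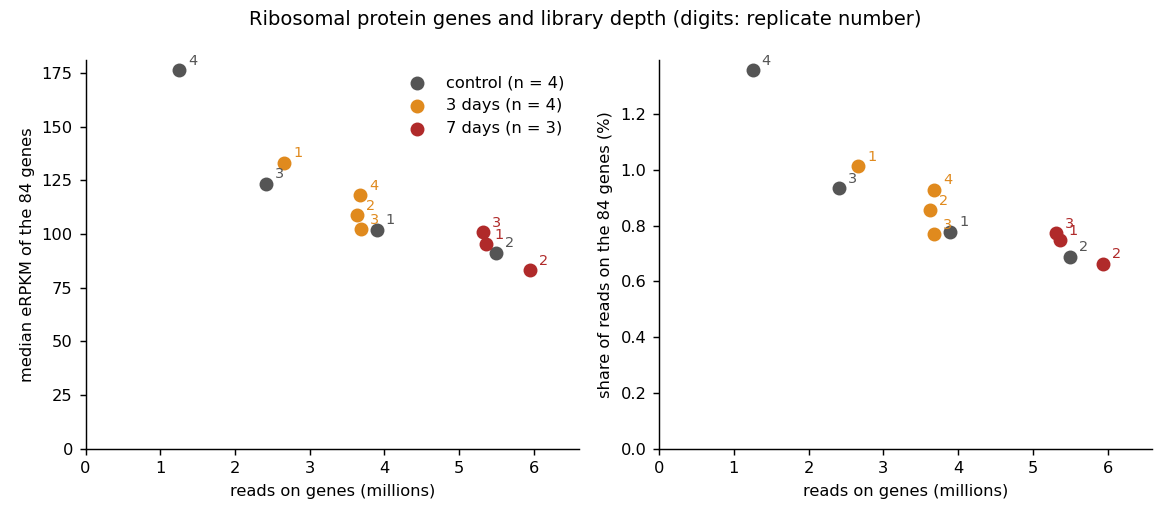
Median eRPKM of the 84 genes (left) and their share of all reads on genes in percent (right) against the reads on genes (an axis scaled by a fixed power of 10), with 1 point per library colored by group and numbered by replicate. The values fall from 176 eRPKM and 1.36% in control 4, with 1251396 reads, to 83.1 eRPKM and 0.663% in 7-day liver 2, with 5941357 reads, and the 3 groups lie along 1 course.

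After 3 days of YAP induction no ribosomal protein gene passed the test. Differences were tested with limma on log2(eRPKM + 0.5), with all 11 libraries in 1 fit and p-values adjusted over all 14244 genes, and a gene was called at an adjusted p under 0.01 with an absolute log2 fold change above 0.5, the thresholds of the study. Of the 84 genes, 0 were called by limma, 3 had an unadjusted p under 0.05 and 0 were called by limma-voom on reads recovered from the values, while 0.0421% of all genes tested were called, 0.0421% as higher and 0% as lower. At the looser threshold of an adjusted p under 0.05, whatever the fold, 0 of the 84 genes and 0.288% of all genes tested passed, 0.281% as higher and 0.00702% as lower. The livers of both groups did not overlap for 1 of the 84 genes, Rpl26, which was above controls, while 3.38% of all genes tested lay above and 2.25% below. The median log2 fold change was -0.04 for the 84 genes and 0.02 for all genes tested. Apart from Rpl26, which had no read in any control, the largest differences, none of them called, were those of Rpl34 (1.01) and Rpl7l1 (0.29) upward and of Rpl39l (-0.82), Rpl36al (-0.81) and Rpl29 (-0.46) downward. Rpl29 is a protein of the large subunit. It had 80.5, 70.6, 82.4 and 128 eRPKM in controls 1 to 4, 72.9, 67.0, 58.3 and 57.9 after 3 days, and 68.7, 54.1 and 75.5 after 7 days. At 3 days 3 of 4 livers of Rpl29 were below all controls (exact two-sided permutation p = 0.0571, limma adjusted p = 0.341).

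After 7 days 1 of the 84 genes fell and 0 rose past the threshold, in a liver in which 23.8% of all genes tested were called. The falling gene was Rpl22. Of all genes tested 5.77% were called as lower and 18% as higher, and for the ribosomal protein genes the count of 0 from limma stood beside 13 genes with an unadjusted p under 0.05 in either direction and 0 upward calls by limma-voom. The median log2 fold change was -0.35 for the 84 genes, -0.36 for the small subunit, -0.35 for the large subunit and 0.26 for all genes tested. At the looser threshold 3 of the 84 passed, Rpl34 and Rps19bp1 as higher and Rpl22 as lower, beside 37.8% of all genes tested, 27.9% higher and 9.98% lower. By sign alone 72 of the 84 genes were lower than in controls and 12 were higher. The 7-day livers lay below all controls for 9 of the 84 genes and above all controls for 4, while 13.3% of all genes tested lay below and 36.7% above. The median of the 84 genes was -0.15 without control 4 and -0.04 when only the 2 deepest controls, 1 and 2, were kept. It was -0.47 without control 2 and -0.63 with median-ratio size factors. With log2 depth as a covariate it was 0.11 and after quantile normalization 0.08, so that its sign depended on the setting. The median of all genes tested was 0.07 with the depth covariate and -0.08 after quantile normalization.

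**Figure D3:**
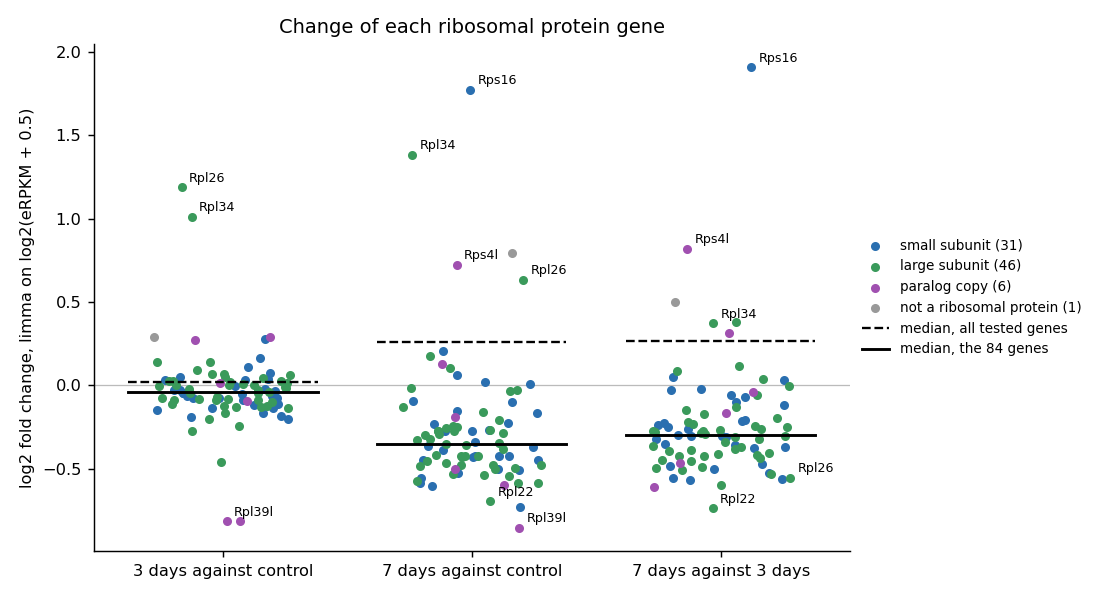
Log2 fold change of each of the 84 genes in the 3 comparisons, colored by subunit, with the median of the 84 genes as a solid line and the median of all genes tested as a dashed line. At 7 days the solid line lies at -0.35 and the dashed one at 0.26, and Rps16 at 1.77 and Rpl34 at 1.38 lie far above the rest.

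Rpl22, an RNA-binding protein of the large subunit, was the called member. It lies on chromosome 4 (mm9, 151699851 to 151708180, plus strand). Rpl22 had 59.4, 69.4, 66.4 and 78.3 eRPKM in controls 1 to 4, 88.3, 64.0, 52.7 and 80.9 after 3 days, and 42.5, 42.4 and 40.6 after 7 days. All 3 livers at 7 days were below every control and every 3-day liver. Among these controls, control 2 was the 1 library of similar depth to the 7-day livers. The log2 fold change of Rpl22 from control to 7 days was -0.70 (SE 0.18, limma adjusted p = 0.00808, exact permutation p = 0.0286, the smallest possible with 4 against 3). The call was a narrow one. It was kept in 12 of 27 alternative settings, which gave log2 fold changes from -0.97 to -0.54 and limma adjusted p from 0.00193 to 0.0791. With log2 depth as a covariate Rpl22 was at -0.54 (limma adjusted p = 0.0791) and was not called. Leaving out any 1 of the 4 controls or 3 livers at 7 days gave an adjusted p between 0.0103 and 0.0352. Relative to the median of the subunit genes in each library, Rpl22 was lower by 0.36 at 7 days, and control 4 then lay within the range of the 7-day livers (exact permutation p = 0.114).

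Rpl22l1, the close copy of Rpl22 whose message Rpl22 protein is known to hold down, did not pass the test. It had 74.1, 62.1, 71.8 and 82.9 eRPKM in controls, 138, 73.4, 60.8 and 95.6 at 3 days and 66.1, 54.4 and 70.9 at 7 days, and the 3 groups overlapped (log2 fold change at 7 days -0.19, SE 0.24, limma adjusted p = 0.554). The ratio of Rpl22 to Rpl22l1 was 0.802, 1.12, 0.924 and 0.944 in controls, 0.639, 0.871, 0.867 and 0.846 at 3 days and 0.644, 0.779 and 0.573 at 7 days. All 3 ratios at 7 days were below all 4 control ratios, a log2 difference of -0.51 (exact permutation p = 0.0571, 0.429 when adjusted over the 18 tests of 6 pairs of copies in 3 comparisons).

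**Figure D4:**
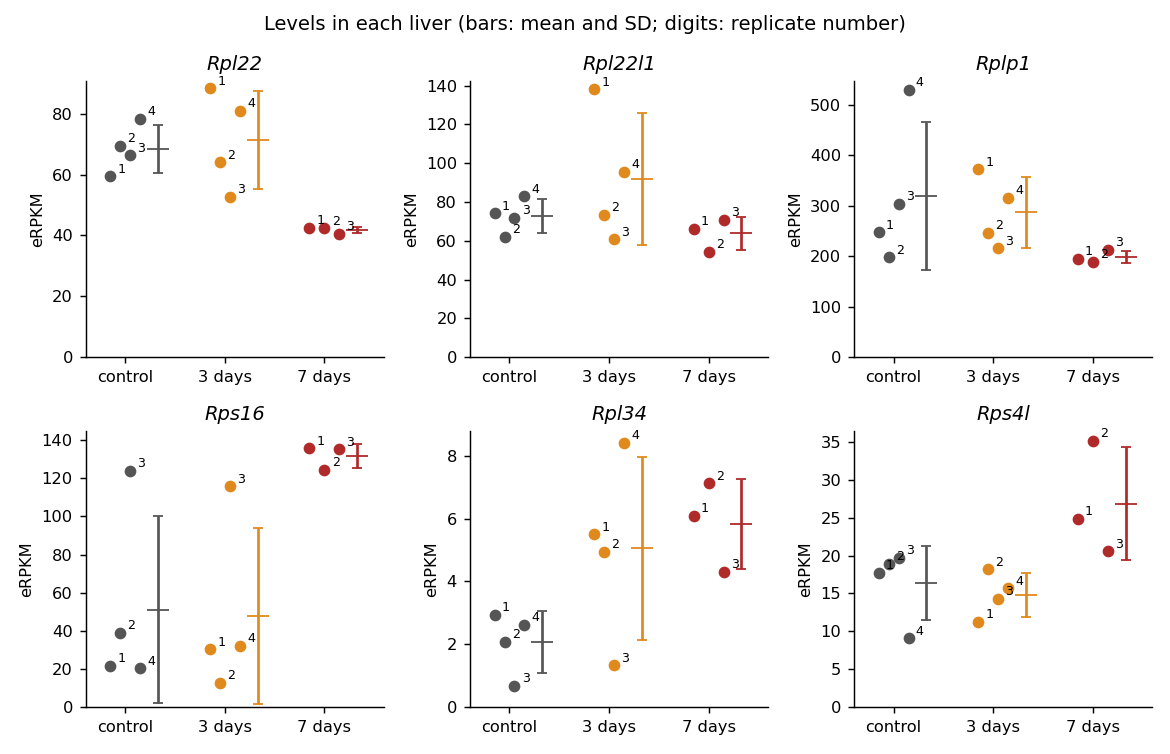
Level in eRPKM of 6 ribosomal protein genes in each liver (points, numbered by replicate) with the mean and SD of each group. Rpl22 at 7 days is at 40.6 to 42.5, below all other livers, Rps16 is above 100 in control 3, 3-day liver 3 and the 3 livers at 7 days only, and Rplp1 is highest in control 4.

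Rps16, a small-subunit protein near the decoding center, had the widest spread of the family. It had 21.5, 39.0, 124 and 20.2 eRPKM in controls 1 to 4, 30.2, 12.6, 116 and 32.1 after 3 days, and 136, 124 and 135 at 7 days. The libraries thus fell into 5 with 116 to 136 eRPKM, which included 1 control and 1 liver at 3 days, and 6 with 12.6 to 39.0 eRPKM. All 5 libraries of the upper set were from females, judged by Xist and the Y-linked Ddx3y, while the other female libraries, control 2 and 3-day liver 4, were in the lower set. The reads behind these values were 16 to 469 per library. From control to 7 days the log2 fold change of Rps16 was 1.77 (SE 0.66, limma adjusted p = 0.0516), which did not pass, and over all 27 settings it ran from 0.92 in female libraries only to 2.34 without control 3, where it was called (adjusted p = 0.00881). Rps16 lies on chromosome 7 (mm9, 29135671 to 29137715, plus strand), and the levels of each of the 6 tested genes within 50 kilobases overlapped between both sets of libraries. Of the 50-base windows of its message, 81.2% also occur elsewhere in mm9, and how the authors' counting shared reads between such copies is not given in the sources used here.

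Rpl34 and Rpl26, both of the large subunit, were listed far below the rest of the family. Rpl34 (chromosome 3, 130429749 to 130433316, minus strand) had 2.93, 2.07, 0.677 and 2.61 eRPKM in controls, 5.51, 4.94, 1.33 and 8.42 at 3 days and 6.09, 7.13 and 4.30 at 7 days, from 1 to 26 reads per library. The 7-day livers were above all controls, with a log2 fold change of 1.38 (SE 0.50, exact permutation p = 0.0286, limma adjusted p = 0.0425), short of the threshold. Rpl34 was called in 2 of 27 settings, with the replicate number as a block (adjusted p = 0.00308) and without 3-day liver 3 (adjusted p = 0.00984). Rpl26 had 0 reads in the 4 controls, 1, 1, 1 and 2 after 3 days and 2, 1 and 0 at 7 days. It entered the test only through induced livers, so that its difference was fixed by the filter, and no fold is given against controls that hold no read. Why these levels were low was not tested.

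Near-identical copies elsewhere in the genome are a general feature of this family, mostly as processed pseudogenes. For 75 subunit genes with a message in GENCODE M1, the share of 50-base windows with an exact copy outside the gene on mm9 had a median of 51.0%. It was 99.7% for Rps27, 5.89% for Rpl22, 44.7% for Rpl34 and 49.5% for Rpl26. Across the 75 genes the share and the mean level had a Spearman rho of 0.32, a description over genes that share libraries. The share was taken from the longest message of each gene, and eRPKM divides by exon length, so length enters both. The effect of copies on the reads was not tested. The median level was 85.6 eRPKM for the 6 genes with under 10% of windows copied and 139 eRPKM for the 11 with at least 90%. Values of genes with many copies are uncertain, because how reads that match several places were counted is not given in the sources used here.

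For the other copies the ratio to the counterpart was tested in the same way, with 0.429 the lowest exact permutation p adjusted over the 18 tests. Before adjustment this p cannot go below 0.0286, so no ratio could have reached an adjusted p under 0.01. The test therefore cannot tell whether these ratios changed. Rps27l, a p53-responsive copy of Rps27, was as abundant as Rps27 itself, with a mean of 134 eRPKM against 133 eRPKM. Rps27l had 124, 102, 142 and 227 eRPKM in controls, 226, 115, 106 and 154 at 3 days and 92.1, 90.3 and 99.2 at 7 days. Rps27 had 117, 95.4, 154 and 295 eRPKM, then 175, 119, 105 and 132, then 94.5, 88.2 and 88.3. Both were lower in every 7-day liver than in every control, by -0.60 and -0.73 on the log2 scale, and neither passed (limma adjusted p = 0.116 and 0.0803). Their ratio was 0.936 to 1.3 in controls and 0.890 to 1.03 at 7 days. Rpl7 stood 4.39 to 11.5 times above Rpl7l1, Rpl36a at least 21.3 times above Rpl36al and Rpl39 at least 9.34 times above Rpl39l in each library. Rpl39l had 4.02, 1.97, 9.01 and 20.2 eRPKM in controls and 2.70 to 3.85 at 7 days, so its change of -0.86 at 7 days came mostly from controls 3 and 4.

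Rps4l, the autosomal copy of the X-linked Rps4x, had a higher mean at 7 days, without passing the test. It had 17.7, 18.9, 19.7 and 9.07 eRPKM in controls, 11.2, 18.2, 14.3 and 15.7 at 3 days and 24.8, 35.2 and 20.6 at 7 days, above all other livers. Its log2 fold change was 0.72 against control (SE 0.28, limma adjusted p = 0.0545) and 0.82 against 3 days (SE 0.28, adjusted p = 0.0345), and neither passed. Over 27 settings the change against control ran from 0.24 to 0.89 and was called in 0. Rps4x had 184, 152, 202 and 342 eRPKM in controls, 189, 199, 169 and 181 at 3 days and 159, 135 and 169 at 7 days (log2 fold change at 7 days -0.45, SE 0.23, adjusted p = 0.145). The ratio of Rps4x to Rps4l was below all 3-day livers in the 7-day livers (exact permutation p = 0.0286, 0.429 adjusted over the 18 tests). Rps19bp1, also higher in every 7-day liver than in every control, was the uncalled member nearest the threshold, with 15.9, 15.5, 11.2 and 8.41 eRPKM in controls and 26.2, 16.5 and 23.8 at 7 days (log2 fold change 0.79, SE 0.27, adjusted p = 0.0375).

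Proteins of the stalk and those with known roles outside the ribosome did not pass the test at 7 days. Rplp1 had 247, 197, 304 and 529 eRPKM in controls, 372, 246, 215 and 315 at 3 days and 195, 189 and 212 at 7 days. Control 2 lay among the 7-day livers and control 4 far above them, and the log2 fold change of -0.58 (SE 0.29) did not pass (limma adjusted p = 0.132). Its partners in the stalk, Rplp0 (-0.16, SE 0.21) and Rplp2 (-0.04, SE 0.18), did not pass either, and for both the groups overlapped. Relative to the median subunit gene, both lay above all controls in every 7-day liver, Rplp0 by 0.18 (exact permutation p = 0.0286) and Rplp2 by 0.30 (exact permutation p = 0.0857). The same held for 36.2% of all genes tested. On this scale Rplp1 went the other way, at -0.25, and its groups overlapped (exact permutation p = 0.0857). These p-values are unadjusted. Rps6, the substrate of the S6 kinases, had 142, 119, 154 and 235 eRPKM in controls, 155, 156, 138 and 149 at 3 days and 124, 103 and 125 at 7 days (log2 fold change -0.42, SE 0.20, adjusted p = 0.114). Rpl5 and Rpl11, which bind Mdm2 when ribosome assembly is disturbed, were at -0.42 (SE 0.24) and -0.03 (SE 0.26). Rpsa, also known as the laminin receptor, was at -0.37 (SE 0.23), Rps19, mutated in Diamond-Blackfan anemia, at -0.43 (SE 0.29), and Rps27a, made as a fusion with ubiquitin, at -0.59 (SE 0.28), none of them called (adjusted p = 0.116 to 0.941). Rpl10 (-0.59) and Rpl4 (-0.38) were not called.

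Between 3 and 7 days the same gene, Rpl22, fell and 0 rose. Its log2 fold change was -0.74 (SE 0.18, limma adjusted p = 0.00699, exact permutation p = 0.0571), in a comparison in which 19.3% of all genes tested were called, 14% as higher and 5.31% as lower. At the looser threshold 4 of the 84 passed, Rps16 and Rps4l as higher and Rpl15 and Rpl22 as lower, beside 35.7% of all genes tested, 25.4% higher and 10.3% lower. Upward the count of 0 by limma stood beside 6 genes with an unadjusted p under 0.05 in either direction, and limma-voom called Rps16 as higher. The call was kept in 10 of 26 settings, with adjusted p from 0.00119 to 0.118, and was lost on leaving out any liver but 3-day liver 3, control 1 or control 4. Of the 84 genes, 73 were lower by sign and 34 lay below all 3-day livers in every 7-day liver, while 13.8% of all genes tested did, and 2 (Rps16 and Rps4l) lay above, against 31.3%. All 7-day libraries were deeper than all 3-day libraries, and with log2 depth as a covariate the median of the 84 genes went from -0.30 to 0.03. Rpl15, of the large subunit, had 98.3, 96.6, 104 and 173 eRPKM in controls, 151, 122, 97.2 and 142 at 3 days and 84.5, 79.5 and 85.9 at 7 days (log2 fold change against 3 days -0.60, SE 0.21, adjusted p = 0.0446, not called). Rpl28 had the largest change upward against 3 days of the large subunit (0.38, SE 0.23, adjusted p = 0.210). After quantile normalization Rpl28 and Rpl3 were called as higher against 3 days, and Rpl3 against control. In the test without that step Rpl3 was at 0.17 against control (SE 0.15, adjusted p = 0.373).

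Other abundant genes also had negative medians at 7 days, and a larger share of them was called than of ribosomal protein genes. Of the 84 genes, 50 had a mean of at least 100 eRPKM, with a median log2 fold change of -0.43 at 7 days, and the 554 other tested genes of that level had a median of -0.70. Of these, 0% of the 50 and 37.2% of the 554 were called. Between 50 and 100 eRPKM the medians were -0.29 for 20 ribosomal protein genes and -0.20 for 1025 others, with 5% and 27.8% called. From 20 to 50 eRPKM the medians had opposite signs, -0.13 for 7 ribosomal protein genes and 0.09 for 2647 others, with 0% and 22.7% called. The difference between these shares was not tested. Below 20 eRPKM other genes had medians of 0.41 and 0.43. Reads on other genes of at least 100 eRPKM rose 2.61 times from control 4 to control 2, and those of genes at 5 to 20 eRPKM 6.57 times. Since the 7-day libraries were also among the deepest, depth and induction cannot be told apart in the medians of abundant genes.

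**Figure D5:**
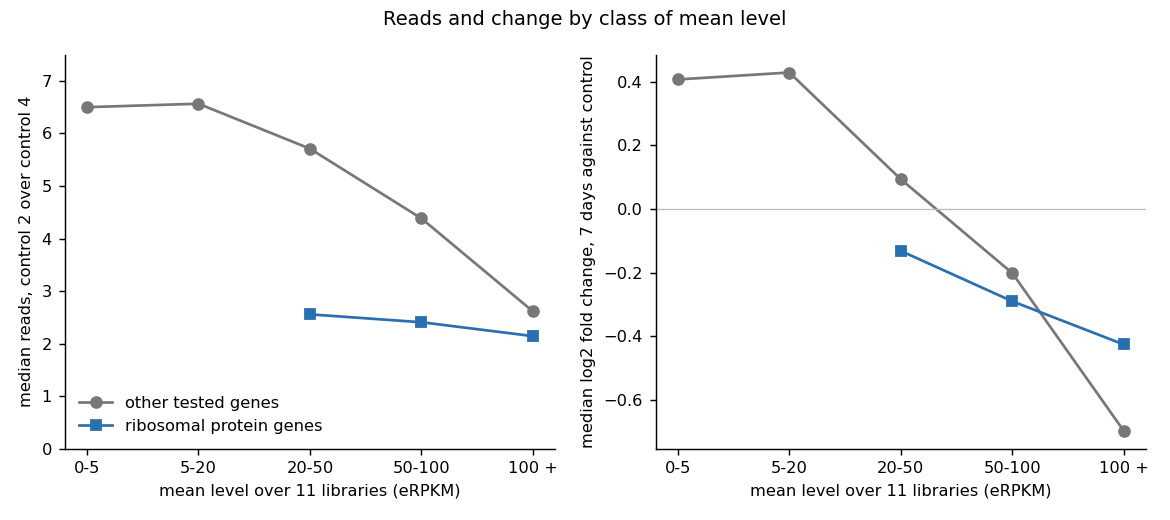
Median reads in control 2 over control 4 (left) and median log2 fold change at 7 days against control (right), by class of mean eRPKM, for ribosomal protein genes (squares) and all other tested genes (circles). The log2 fold change of other genes drops from 0.41 in the lowest class to -0.70 in the highest, and that of ribosomal protein genes from -0.13 at 20 to 50 eRPKM to -0.43.

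Among genes that make and assemble the ribosome all calls at 7 days were upward. Of 57 tested assembly factors, 13 rose and 0 fell, a share of 22.8%. Of all genes tested 18% were called as higher and 23.8% in either direction. The median log2 fold change of the 57 was 0.71, beside 0.26 for all genes tested. Genes outside the family with a mean of 0 to 5 and of 5 to 20 eRPKM had medians of 0.41 and 0.43. The 57 were not matched by level. The 7-day libraries were deeper than all others except control 2, so depth and induction cannot be told apart in these medians. At the looser threshold 32 of the 57 were higher and 0 lower, beside 27.9% and 9.98% of all genes tested. The 7-day livers lay above all controls for 38 of the 57 and below for 1, beside 36.7% and 13.3%. Rrp1b, a nucleolar processing factor, had 2.30, 2.01, 2.14 and 1.07 eRPKM in controls, 1.51, 5.0, 6.54 and 1.61 at 3 days and 16.8, 11.2 and 14.4 at 7 days (log2 fold change 2.64, SE 0.43, limma adjusted p = 0.000436). Grwd1, a chaperone of Rpl3, rose by 2.11 (SE 0.44, adjusted p = 0.00258). Of 15 genes of RNA polymerase I and its factors 2 rose and 0 fell, the polymerase subunit Cd3eap (1.77, SE 0.31, adjusted p = 0.000773) and Taf1c of its promoter factor (1.84, SE 0.32, adjusted p = 0.000695), a share of 13.3%. Whether these lists differ from all genes tested or from the ribosomal protein genes was not tested.

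Among 21 regulators of ribosomal protein synthesis 4 rose and 0 fell at 7 days, a share of 19.0%, near the 18% of all genes called as higher. They were Ddit4, an inhibitor of mTOR (log2 fold change 3.37, SE 0.30, limma adjusted p = 7.9e-06), the transcription factor Myc (3.09, SE 0.64, adjusted p = 0.00231), Mlst8, a subunit of mTOR complexes (1.49, SE 0.29), and Mdm2, the ubiquitin ligase of p53 (0.95, SE 0.18). Myc had 8.02, 1.92, 3.57 and 1.87 eRPKM in controls, 2.93, 2.48, 14.9 and 1.70 at 3 days and 49.1, 16 and 39.7 at 7 days, above all others. Of 19 translation factors and further messages with a known TOP start 1 rose, Nap1l1 (0.96, SE 0.17, adjusted p = 0.000725), and 0 fell, a share of 5.26% with a median of 0.03. Of 18 cap-binding and other initiation factors 1 fell (5.56%), the helicase Eif4a2 (-0.76, SE 0.18, adjusted p = 0.00503). Fau, a ribosomal protein made as a fusion with a relative of ubiquitin and outside the name rule, was at -0.35 (SE 0.21, adjusted p = 0.208) and was not called. Of 75 mitochondrial ribosomal proteins, which belong to the separate ribosome of that organelle, 1 rose (Mrps10, 0.98) and 1 fell (Mrps31, -0.80), a share of 2.67% with a median of -0.04. All these shares stand beside 23.8% of all genes tested, and their differences from it were not tested. The S6 kinase Rps6ka1, excluded by the name rule, rose by 1.45 (SE 0.35, adjusted p = 0.00566).

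Markers of proliferation and of macrophages rose at the same time, in a liver in which 18% of all genes tested were called as higher and 5.77% as lower. All 8 hepatocyte markers passed the filter and 2 fell at 7 days, with a summed level of 1417 to 4013 eRPKM in controls and 1053 to 1238 eRPKM at 7 days. Alb is among the 8, and its reads were 2417 to 3102 in every library whatever the depth. The 7-day libraries were deeper than all others except control 2, so depth and induction cannot be told apart in this sum. Of 6 macrophage markers 4 rose, from a summed level of 231 to 468 eRPKM in controls to 794 to 891 eRPKM at 7 days, and no marker of the list was at 0 in all libraries. All 6 proliferation markers rose, from a summed 12 to 23.9 eRPKM in controls to 147 to 217 eRPKM at 7 days. At 3 days the sum ran from 23.5 to 182 eRPKM, and 0 of the 6 were called at 7 days against 3 days. Among 5 biliary markers 1 rose, among 6 endothelial markers 2 rose, among 5 T cell markers 1 rose, among 7 stellate markers 1 fell, among 4 erythroid markers 2 fell and among 4 B cell markers 0 were called, counts too small to set apart from the shares of all genes. In bulk tissue fewer cells of a type and less RNA per cell cannot be told apart, and the part of these markers in the levels of ribosomal protein genes was not tested. By Xist and Ddx3y, controls and 3-day livers were 2 female and 2 male each and all 3 livers at 7 days were female. In female libraries only, the median log2 fold change of the 84 genes at 7 days was -0.17 and Rpl22 was at -0.69 (limma adjusted p = 0.0282).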

How the data were processed

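Total RNA of homogenized livers was made into libraries with an unstranded kit and sequenced as read pairs. The authors masked low-quality bases, aligned to mm9 with TopHat2 2.0.8 and counted reads on genes, with featureCounts 1.4.5-p1 among the tools in the submitters' processing notes. The annotation and the handling of duplicate and multi-mapped reads are not given in the sources used here. The deposited values are eRPKM, a kind of RPKM, which the authors divided by library depth. The table also holds the authors' DESeq2 mean, log2 fold change and adjusted p for 7 days against control, which were not used. No column of per-sample values was left unused.

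Whole reads were recovered from the steps of low values: 100% of 177553 values above 0 were within 0.1 of a whole read. They gave the depths and 1 alternative fit. Depth was 3895224, 5495697, 2409689 and 1251396 reads in controls 1 to 4, 2660233, 3626710, 3681416 and 3678729 at 3 days, and 5356541, 5941357 and 5312486 at 7 days. Depth limits the genes with few reads. Protein sequences of the copies were not analysed here, and a few named genes are not reported here.

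All genes that reached 0.5 eRPKM in 3 or more libraries entered limma 3.58.1 (R 4.3.3), with a mean-variance trend, on log2(eRPKM + 0.5), a scale that understates changes of low genes, in 1 fit of 3 groups, adjusted by Benjamini-Hochberg over all genes tested. Single members also had an exact two-sided permutation test over libraries, which cannot go below 0.0286. The step was tested on simulated data. Members and gene lists were chosen with earlier results of these data known. Named were the largest changes (called or, failing that, the first 3 in each direction), the copies and their counterparts, members with special roles, the extremes of level and the genes nearest the threshold, and for other lists the 2 largest called changes in each direction. Mlst8, Mdm2, Rpl28, Rps6ka1, the genes of the printed promoters and the genes of wide spread were added after their values were seen. Positions are from GENCODE M1 on mm9 and promoters from RefSeq on GRCm38.p6, with 63 of 84 symbols matched. Tables and plots were made with scipy 1.17.1, pandas 2.3.3 and matplotlib 3.10.9 under Python 3.11.15.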

Additional observations from a re-analysis of the deposited data

Results flagged for a closer look

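For 25 named members, the reads on genes and 2 summaries of the family, the gap that sets the outermost library apart, as a share of the group's range, was compared with Dixon's limit in the controls and in the 3-day livers. Of 55 groups of 4, 4 passed, and chance gives about 1 in 20. In controls these were Rps4l (ratio 0.862), lowest in control 4, and Rpl15 (0.865), highest in control 4, the shallowest library. At 3 days they were Rplp2 (0.939), lowest in liver 1, and the reads on genes (0.946), fewest in liver 1.

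Rpl22 changed differently at 7 and at 3 days, by a log2 difference of -0.74 (SE 0.18, limma adjusted p = 0.00699).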

How the results depend on the processing

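At 3 days 0 of the 84 genes were called under every setting run. At 7 days against control the count of 1 was 0 with an Xist covariate, controls 1 and 2 only (a setting chosen after seeing the data), a depth covariate, female libraries only, no trend or no filter, 2 after quantile normalization and 3 at the looser threshold, an adjusted p under 0.05 whatever the fold. Leaving out 1 library at a time it was 0 to 2, and without control 3 the called gene was Rps16. Against 3 days the count of 1 was 0 with the Xist or depth covariate, the compared groups only, female libraries only, no trend, no filter, or without the libraries marked MF, 2 with voom, 3 after quantile normalization and 4 at the looser threshold, and 0 to 3 without 1 library, with 3 (Rpl15, Rpl22 and Rps4l) without control 4.

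For Rpl22 at 7 days against control the log2 fold change, no longer past the threshold, was -0.67 with the Xist covariate, -0.61 with controls 1 and 2 only, -0.54 with the depth covariate, -0.69 in females, and -0.70 with no trend or no filter, and it was -0.76 to -0.63 without 1 library. Against 3 days it was -0.71, -0.62 and -0.64 with the Xist covariate, the depth covariate and females only, -0.74 in the compared groups only, with no trend or no filter, -0.48 without the libraries marked MF, and -0.87 to -0.63 without 1 library. The cause was not tested.

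The median of the 84 genes at 7 days was 0.11 with the depth covariate, 0.077 after quantile normalization, -0.63 with median-ratio size factors and -0.47 to -0.15 without 1 library, and against 3 days it was 0.12 after quantile normalization. The median of all genes tested moved from 0.26 to 0.02 with size factors and to -0.08 with quantile normalization. Of 10 same-numbered pairs of libraries 2 correlated above 0.1 (-0.222 to 0.269). With so few libraries per group this cannot show whether replicate numbers pair the livers. With the replicate number as a block, Rpl22 was at -0.63 against control and -0.67 against 3 days, 1 gene (Rpl34) was called against control and 0 against 3 days. Of 25 named genes at 7 days, 14 had the other sign under at least 1 setting. Depth limits Rpl26, Rpl34, Rpl36al and Rpl39l, which have few reads.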
